A study of Mus musculus with 12 samples.

Results

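Transcripts of 10 genes that mark macrophages, monocytes and dendritic cells were followed through 3 tissues of mice given corticosterone. The genes were *Adgre1*, *Cd68*, *Csf1r*, *Lyz2*, *Itgam*, *Itgax*, *Cd209a*, *Ccr2*, *Mrc1* and *Cd163*. They were taken by symbol, and all 10 were listed in every tissue, among 22273 entries in gastrocnemius and 22252 in liver and in gonadal white adipose tissue (WAT).

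Macrophages live in most organs, where they clear dying cells and debris, and they are either seeded before birth or replaced from blood monocytes. Monocytes enter tissues along gradients of chemokines that are read by Ccr2, and the growth factor receptor Csf1r keeps macrophages alive once they are there. In liver the resident macrophages are the Kupffer cells, in adipose tissue macrophages gather around dying fat cells in obesity, and in muscle they lie in the connective tissue between fibers. Glucocorticoids act on these cells through the glucocorticoid receptor (GR, gene *Nr3c1*), and are known for lowering inflammatory genes and inducing scavenger receptors.

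The mice were C57BL/6J males, and all of them, controls included, carried the floxed *Nr3c1* gene. GRfl/fl mice had no Cre. GR-mKO mice also carried Cre under the skeletal actin (*Acta1*) promoter, so the deletion was directed at muscle fibers and not at macrophages. For 4 weeks, starting at 8 weeks of age, both genotypes received either vehicle (1% ethanol in the drinking water) or CORT (corticosterone, the chief adrenal glucocorticoid of mice, dissolved in it to 100 µg/mL). Gastrocnemius, liver and gonadal WAT were taken from each of the 4 groups, and every library was made from 1 pool of RNA from 3 mice. The design thus gave 12 groups of 1 library each, with no replicates within a group. No test was run, and no p-value is given.

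The 12 libraries held 19394572 to 20940660 expected counts. Levels are given as CPM, counts per 1000000 counts of the library, and an entry with 3 counts, taken as the floor, corresponds to 0.143 to 0.155 CPM. The GR-mKO libraries held 41.2% (vehicle) and 39.25% (CORT) of the GRfl/fl level of *Nr3c1* in gastrocnemius, and 81.5% to 109.7% of it in liver and gonadal WAT. The defining gene of each tissue was abundant there, *Acta1* in gastrocnemius, *Alb* in liver and *Adipoq* in gonadal WAT. The GR-mKO gastrocnemius libraries also held transcripts of hepatocytes, with 5 such markers summing to 80.9 CPM under vehicle and 296 CPM under CORT against 6.02 and 9.18 CPM in the GRfl/fl libraries.

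A change between 2 libraries is given as a log2 change after 0.5 CPM was added to both sides, followed by the 95% interval of the ratio that counting error alone gives, computed without that addition. A gene is said to have risen or fallen where this change reached 2-fold, which is a rule of size and not a test. Beside each count over the 10 genes stands the share of all genes that did the same in that comparison, taken over those whose mean in the tissue was at least 1 CPM. Where a level is listed at 0, a fold is given as a bound with the 0 set to the floor, beside the nearer 95% limit of the ratio, which can lie closer to 0 than that bound. Levels in a tissue are listed in the order GRfl/fl vehicle, GRfl/fl CORT, GR-mKO vehicle, GR-mKO CORT. Each library serves in both a treatment and a genotype comparison, so the comparisons of a tissue are not independent of each other.

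The genes lie on 9 chromosomes of mouse genome build GRCm38. *Adgre1* is at chr17:57358691-57483527 (plus strand), *Cd68* at chr11:69664213-69666153 (minus), *Lyz2* at chr10:117277331-117282321 (minus), and *Csf1r* is on chromosome 18. The integrin genes *Itgam* (chr7:128062640-128118491) and *Itgax* (chr7:128129547-128150657) are neighbors on the plus strand. *Cd209a* is at chr8:3743397-3748984 (minus), *Ccr2* at chr9:124101950-124113557 (plus), *Mrc1* at chr2:14229392-14332057 (plus) and *Cd163* at chr6:124304656-124330527 (plus).

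The deposited tables keep 1 entry per gene, which bears the identifier of a single transcript. Whether values had been summed over the transcripts of a gene beforehand was not settled, so a level may miss reads that the quantification gave to another transcript of the gene. *Lyz2* and *Mrc1* have a single protein-coding transcript and are free of that limit. For *Itgam*, 99.4% of the 31-base words of the retained transcript also occur in other transcripts of the gene, and for *Ccr2* 98.6% to 100%, so a 0 for either is read as a 0 of the entry and not of the gene. *Csf1r*, *Cd163* and *Adgre1* share 96.0% to 98.8% of such words with their own other transcripts, *Cd68* 76.9%, *Cd209a* 66.5% and *Itgax* 21.8%. The retained transcript differed between tissues for *Itgam*, *Ccr2* and *Cd163*, so these are compared within a tissue only, with the exceptions named.

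Of the 10 genes, 8 had a promoter in the RefSeq table (build GRCm38.p6), which runs from 250 bases before the start of the gene to 50 bases after it. Both strands were searched for GAGGAA, the core of the sites bound by PU.1, the transcription factor of the myeloid lineage, and for AGAACA, a half-site of the glucocorticoid receptor. GAGGAA occurred in 3 of 8 promoters (*Cd68*, *Itgam* and *Mrc1*), against 28.3% of the 32851 promoters in the table. AGAACA occurred in 2 of 8 (*Itgax* and *Cd163*), against 19.0% of all promoters. The first 3 sequences below belong to genes whose levels went up with CORT in gonadal WAT, and the last 2 to the genes whose levels went down there. They are written 5′ to 3′ on the strand of the gene with matches in capitals, which are GAGGAA or its reverse complement in *Cd68* (chr11:69666121-69666420) and *Mrc1* (chr2:14229164-14229463), and AGAACA or its reverse complement in *Cd163* (chr6:124304401-124304700). *Cd209a* (chr8:3748935-3749234) and *Ccr2* (chr9:124101933-124102232) held neither run of letters in this window, which says nothing about the factors.
Cd68: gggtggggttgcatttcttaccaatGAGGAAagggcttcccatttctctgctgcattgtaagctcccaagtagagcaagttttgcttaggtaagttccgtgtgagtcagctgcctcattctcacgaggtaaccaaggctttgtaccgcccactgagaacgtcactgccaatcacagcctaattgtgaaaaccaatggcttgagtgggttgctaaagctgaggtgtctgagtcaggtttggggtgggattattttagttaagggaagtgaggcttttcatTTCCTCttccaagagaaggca
Mrc1: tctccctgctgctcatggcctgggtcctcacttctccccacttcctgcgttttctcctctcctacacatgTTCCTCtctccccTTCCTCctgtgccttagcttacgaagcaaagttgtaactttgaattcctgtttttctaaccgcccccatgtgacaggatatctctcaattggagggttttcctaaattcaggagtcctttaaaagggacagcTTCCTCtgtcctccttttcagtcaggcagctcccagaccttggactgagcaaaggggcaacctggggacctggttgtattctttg
Cd163: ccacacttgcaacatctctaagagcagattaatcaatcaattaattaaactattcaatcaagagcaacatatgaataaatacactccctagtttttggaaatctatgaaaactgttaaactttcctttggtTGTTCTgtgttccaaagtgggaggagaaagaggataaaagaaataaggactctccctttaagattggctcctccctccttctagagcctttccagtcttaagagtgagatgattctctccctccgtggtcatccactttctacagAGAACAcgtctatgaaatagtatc
Cd209a: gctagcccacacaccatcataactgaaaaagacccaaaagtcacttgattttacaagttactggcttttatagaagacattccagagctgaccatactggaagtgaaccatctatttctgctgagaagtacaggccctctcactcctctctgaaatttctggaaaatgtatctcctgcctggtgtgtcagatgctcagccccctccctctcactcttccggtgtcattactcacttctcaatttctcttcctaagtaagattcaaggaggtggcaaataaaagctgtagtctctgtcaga
Ccr2: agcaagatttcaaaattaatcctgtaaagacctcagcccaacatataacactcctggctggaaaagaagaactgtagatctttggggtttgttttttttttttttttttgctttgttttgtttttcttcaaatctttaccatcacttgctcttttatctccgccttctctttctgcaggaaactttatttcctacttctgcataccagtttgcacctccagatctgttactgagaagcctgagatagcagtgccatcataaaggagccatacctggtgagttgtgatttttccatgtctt

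All 10 genes were highest in gonadal WAT among the 3 tissues by the mean of the 4 libraries, with the retained transcripts of *Itgam*, *Ccr2* and *Cd163* not being the same in each. In GRfl/fl vehicle mice, *Lyz2*, which encodes the lysozyme of macrophages, stood at 66.15 CPM in gastrocnemius, 45.6 CPM in liver and 436 CPM in gonadal WAT. *Adgre1*, the classical surface antigen of mouse macrophages, stood at 3.52, 10.3 and 23.3 CPM in the same order. *Cd209a*, a lectin of monocyte-derived dendritic cells, was at 1.915 CPM in gastrocnemius, 0.0958 CPM in liver (under the floor) and 6.71 CPM in gonadal WAT. Liver was thus the tissue in which the dendritic cell and monocyte genes were nearly absent: *Cd209a* was at or under the floor in all 4 liver libraries, and *Ccr2* and *Itgax* never passed 0.679 CPM there. On the scale of CPM per kilobase of transcript, which allows levels of different genes to be compared, *Lyz2* was the highest of the 10 genes in all 12 libraries and made up 53.4% to 85.2% of their sum. The next was *Cd68* in 9 libraries, *Mrc1* in both liver libraries from CORT mice and *Csf1r* in the gastrocnemius of GRfl/fl CORT mice.

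**Figure D1:**
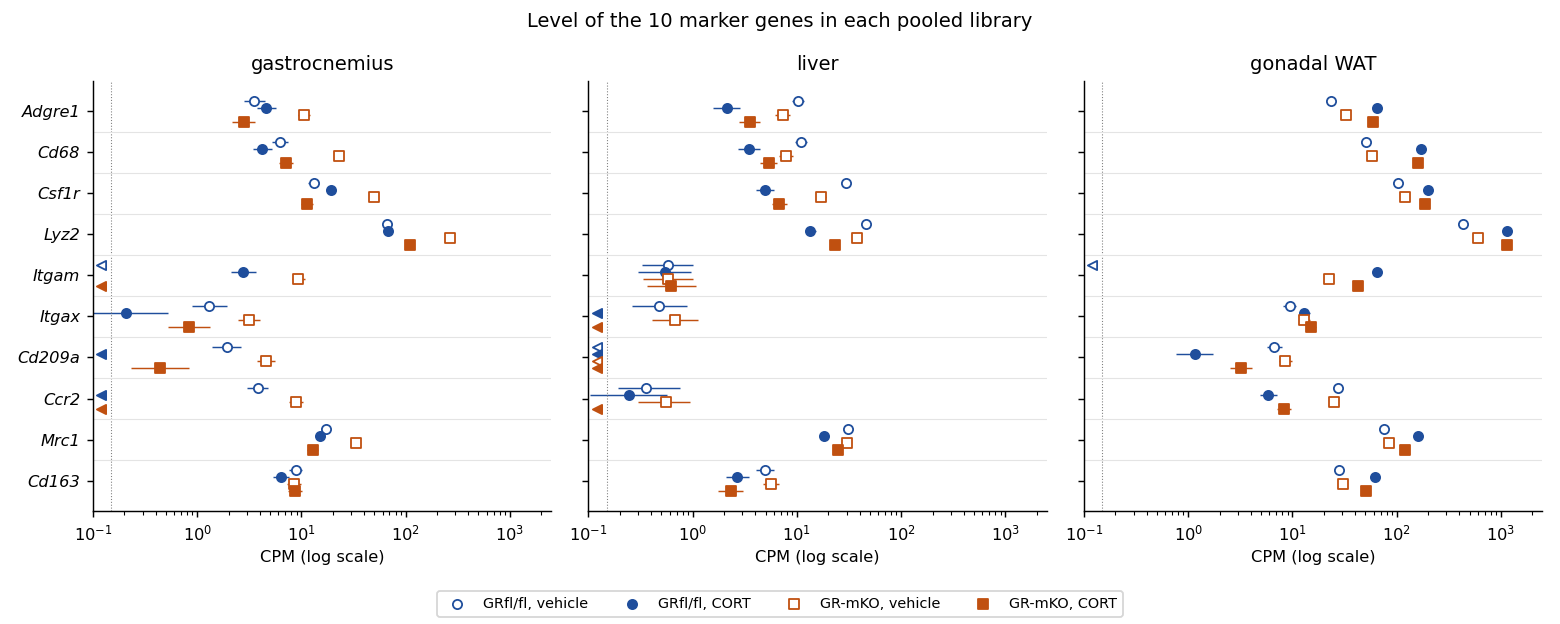
Level of the 10 genes in each of the 12 pooled libraries, in CPM on a log axis, with 1 panel per tissue. Circles are GRfl/fl and squares GR-mKO, open symbols vehicle and filled symbols CORT, bars are 95% Wilson intervals for counting error, and triangles at the left edge mark entries with 3 counts or fewer (dotted line, about 0.15 CPM); in liver the filled symbols lie left of the open ones for 8 genes, with *Cd209a* under the floor throughout, in gonadal WAT they lie right for 8 and left for *Cd209a* and *Ccr2*, and in gastrocnemius the open square is the rightmost for 9 of 10.

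In gonadal WAT of CORT mice the macrophage genes were higher than in vehicle mice, while the monocyte gene *Ccr2* and the dendritic cell gene *Cd209a* were lower. In GRfl/fl mice 6 of 10 genes rose and 2 fell, against 6.4% and 8.96% of all genes, with a median log2 change of 1.1 over the 10 and of -0.06 over all genes. In GR-mKO mice 1 rose and 2 fell, against 4.17% and 6.52% of all genes, with a median of 0.66 over the 10 and of -0.13 over all genes. Scaling by TMM or by median-of-ratios factors, which shift the median of all genes in that comparison by 0.121 and 0.125 on the log2 scale, puts 3 genes above 2-fold in GR-mKO mice, with 2 still below it, and splits all genes of that comparison into 5.17% higher and 5.14% lower with TMM. Both CORT libraries lay above both vehicle libraries for 8 of 10 genes, an order held by 25.0% of all genes. For *Cd209a* and *Ccr2* both lay below, an order held by 40.3% of all genes. In bulk tissue, fewer cells of a type and less RNA per cell cannot be told apart.

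Among the general macrophage genes, *Cd68*, which encodes a glycoprotein of the lysosome membrane, had the largest rise in both genotypes apart from that of *Itgam* in GRfl/fl mice, which started from 0. Its levels in gonadal WAT were 50.9, 171, 58.3 and 161 CPM, a log2 change with CORT of 1.74 (1.64 to 1.85) in GRfl/fl and of 1.45 (1.36 to 1.56) in GR-mKO mice. *Adgre1* was at 23.3, 65.1, 32.7 and 59.0 CPM, a change of 1.46 (1.33 to 1.64) and of 0.84 (0.71 to 0.99). The CORT libraries of the 2 genotypes were close to each other for both genes and well apart from their vehicle libraries. *Lyz2* was at 436, 1137, 599 and 1144 CPM, a change of 1.38 (1.35 to 1.42) and of 0.93 (0.90 to 0.97). *Lyz2* shares 32.8% of its 31-base words with its neighbor *Lyz1*, the lysozyme of Paneth cells, and the *Lyz1* entry moved the other way in these libraries, at 70.9, 13.1, 96.6 and 34.2 CPM. The receptor gene *Csf1r* was at 103, 200.4, 120.1 and 185 CPM, a change of 0.96 (0.88 to 1.04) and of 0.62 (0.55 to 0.70), just under 2-fold in GRfl/fl mice.

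The scavenger receptors of resident macrophages rose in GRfl/fl mice and were within 2-fold in GR-mKO mice. *Mrc1*, the mannose receptor, was at 74.8, 159, 84.1 and 119.7 CPM, a log2 change of 1.09 (1.00 to 1.18) in GRfl/fl and of 0.51 (0.42 to 0.60) in GR-mKO mice. *Cd163*, the receptor for complexes of hemoglobin and haptoglobin, was at 28.1, 61.65, 30.8 and 50.6 CPM, a change of 1.12 (0.99 to 1.28) and of 0.71 (0.57 to 0.86). Both genes were thus higher in each CORT library than in either vehicle library, an order held by 25.0% of all genes. The GRfl/fl CORT library was on top for both.

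The integrin alpha chains differed from one another. *Itgam*, the alpha chain of the complement receptor of macrophages, monocytes and neutrophils, was listed at 0 in the GRfl/fl vehicle library and at 64.7 CPM in GRfl/fl CORT, a level at least 430-fold higher with the 0 set to the floor (lower limit of the log2 ratio 8.45). In GR-mKO mice it was at 22.5 CPM under vehicle and 42.7 CPM under CORT, a log2 change of 0.91 (0.76 to 1.1). *Itgax*, the alpha chain used to mark dendritic cells and the macrophages of obese fat, was at 9.42, 13.01, 12.96 and 15.02 CPM and changed by 0.45 (0.19 to 0.74) and by 0.21 (-0.03 to 0.46). *Itgb2*, the beta chain that pairs with both, rose from 25.6 to 83.9 CPM in GRfl/fl and from 25.7 to 79.1 CPM in GR-mKO mice.

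*Ccr2* and *Cd209a* fell in gonadal WAT in both genotypes. *Ccr2*, the chemokine receptor by which monocytes leave the marrow and enter tissues, was at 27.6, 5.88, 24.95 and 8.26 CPM, a log2 change of -2.14 (-2.53 to -1.94) in GRfl/fl and of -1.54 (-1.86 to -1.34) in GR-mKO mice. *Cd209a* was at 6.71, 1.17, 8.56 and 3.22 CPM, a change of -2.11 (-3.25 to -1.89) and of -1.28 (-1.85 to -0.99). For each of the 2 genes both CORT libraries lay below both vehicle libraries, an order held by 40.3% of all genes. *Ccl2* and *Ccl7*, which encode ligands of Ccr2, went the other way, *Ccl2* at 4.66, 33.2, 3.59 and 36.2 CPM and *Ccl7* at 4.36, 15.85, 3.49 and 16.3 CPM. *Ccl12*, another ligand in the same list, is not among the values given, so this is not a statement on all ligands of Ccr2.

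The relatives of *Cd209a* did not all move with it. *Cd209c* fell, from 4.20 to 1.78 CPM in GRfl/fl and from 5.23 to 1.77 CPM in GR-mKO mice. *Cd209b*, *Cd209d*, *Cd209f* and *Cd209g* were within 2-fold in both genotypes, at 8.77 to 36.4 CPM, *Cd209b* in GR-mKO mice narrowly so, with a log2 change of 0.98.

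**Figure D2:**
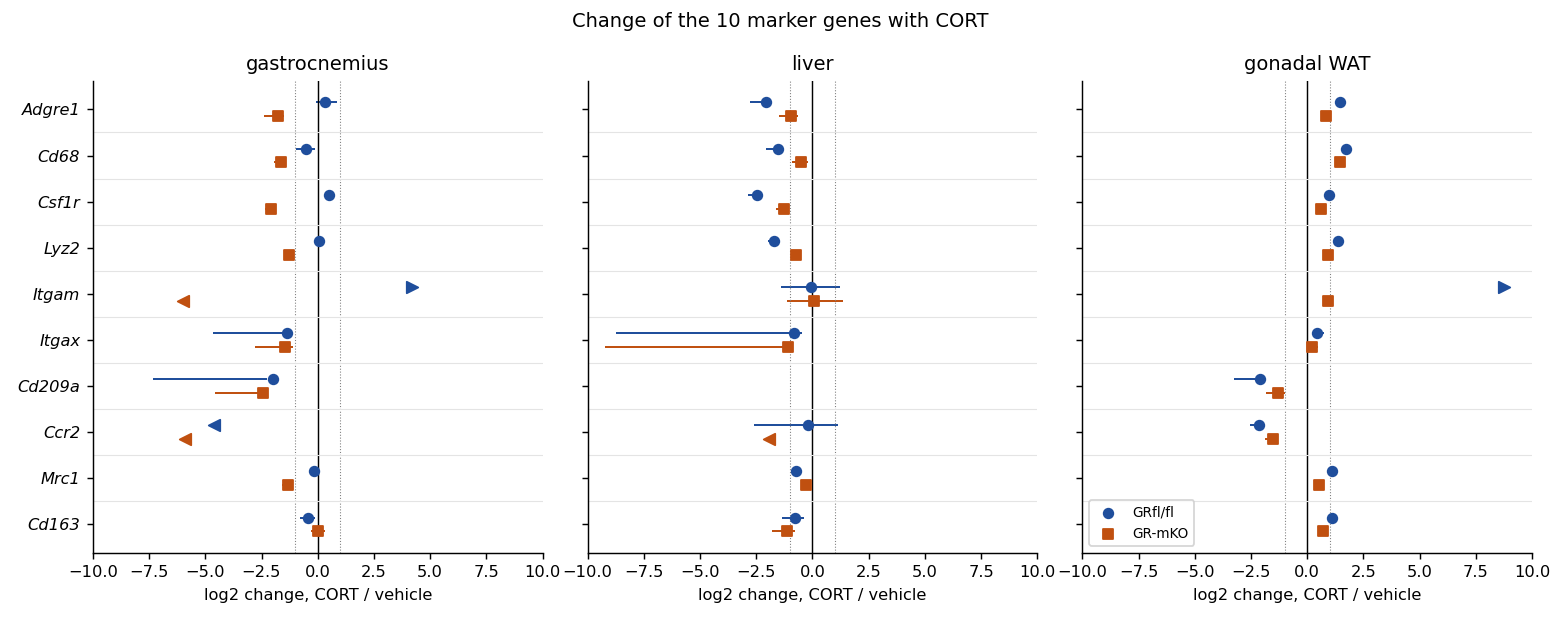
Log2 change of each gene with CORT, in 1 panel per tissue, with GRfl/fl as blue circles and GR-mKO as orange squares. Bars are 95% intervals of the ratio for counting error only (cut at the axis limits), and dotted lines mark 2-fold. Triangles mark bounds for genes at 0 on one side, and genes at or under 3 counts on both sides are left out. In gonadal WAT 8 genes lie right of 0, and in liver all but *Itgam* lie left of it. In gastrocnemius the GR-mKO symbols lie far to the left for all genes but *Cd163*, which is near 0, while most circles lie within 2-fold.

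Set against *Adgre1* in the same library, which removes the scaling of the library, the makeup of the marker set shifted in gonadal WAT. There were 1.18 *Ccr2* counts per *Adgre1* count (95% counting interval 1.04 to 1.34) in GRfl/fl vehicle mice and 0.0903 (0.074 to 0.109) in GRfl/fl CORT mice. In GR-mKO mice the ratio went from 0.764 (0.678 to 0.861) to 0.14 (0.118 to 0.165). *Cd209a* showed the same order, from 0.288 to 0.018 and from 0.262 to 0.0545. *Itgax* went from 0.404 to 0.2 in GRfl/fl and from 0.397 to 0.255 in GR-mKO mice, and *Csf1r* from 4.41 to 3.08 and from 3.68 to 3.13. *Cd68* went up, from 2.18 to 2.62 and from 1.79 to 2.72. *Lyz2*, by contrast, kept to between 17.5 and 19.4 counts per *Adgre1* count in the 4 libraries, and *Cd163* to between 0.857 and 1.2.

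**Figure D3:**
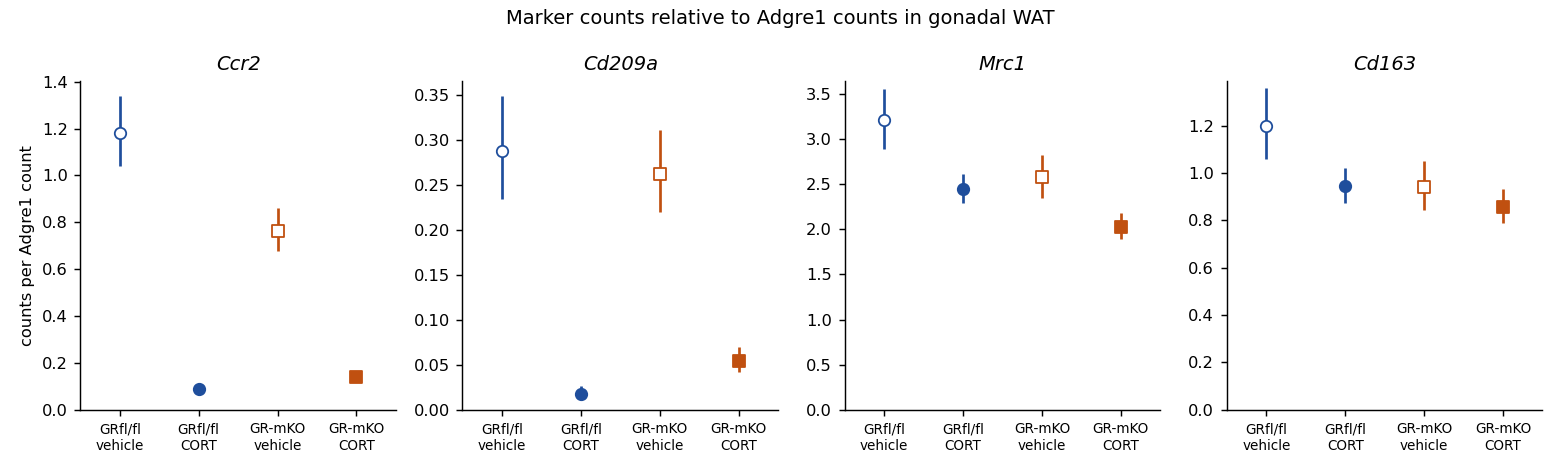
Counts of 4 genes per *Adgre1* count in the 4 gonadal WAT libraries, on linear axes from 0, with 95% intervals for counting error. *Ccr2* drops from 1.18 and 0.764 under vehicle to 0.0903 and 0.14 under CORT and *Cd209a* drops likewise, while *Mrc1* stays between 2.03 and 3.21 and *Cd163* between 0.857 and 1.2.

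Other immune genes of gonadal WAT were read by list, where the background was 6.4% of all genes up and 8.96% down with CORT for GRfl/fl, and 4.17% up and 6.52% down for GR-mKO. Of 17 other macrophage genes, 4 rose and 2 fell with CORT in GRfl/fl mice (median 0.84) and 3 rose and none fell in GR-mKO mice (median 0.47). The 2 that fell, *Ptprc* and *Cx3cr1*, were listed at 0 in GRfl/fl CORT, and *Ptprc*, the common leukocyte antigen, was at 18.2 CPM in GR-mKO CORT. Of 8 genes of lipid-associated macrophages, the cells that take up fat from dying adipocytes, 5 rose and none fell in each genotype, with medians of 2.003 and 1.42. *Gpnmb* went from 23.98 to 214 CPM in GRfl/fl and from 36.7 to 149 CPM in GR-mKO mice, *Mmp12* from 16.8 to 122 and from 36.7 to 127 CPM, and *Spp1* from 1.05 to 15.1 and from 1.42 to 8.32 CPM. Of 8 genes of resident and perivascular macrophages, 3 rose in GRfl/fl mice, 4 rose in GR-mKO mice and none fell (medians 0.81 and 0.985). *F13a1*, which encodes a clotting factor subunit made by macrophages, went from 47.8 to 423 CPM and from 58.4 to 297 CPM, and *Lyve1*, a hyaluronan receptor, from 47.8 to 273.5 CPM and from 59.5 to 210.3 CPM. Of 7 Kupffer cell genes, of which *Folr2* and *Timd4* also stand in the resident list, 4 rose in each genotype and 1, *Clec1b*, fell in GR-mKO mice from 0.557 CPM to a listed 0 (medians 1.17 and 1.08). *Marco* was at 2.51, 24.2, 2.38 and 10.67 CPM, whereas *Clec4f*, which defines Kupffer cells, was at no more than 0.0503 CPM.

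Genes of dendritic cells and lymphocytes were lower or within 2-fold, and none rose, against the same shares of all genes. Of 10 dendritic cell genes none rose and 3 fell in each genotype (medians -0.72 and -0.63), among them *Clec9a*, a receptor of the cross-presenting type, from 3.66 to 1.21 CPM and from 3.75 to 0.94 CPM. *Zbtb46*, a transcription factor that dendritic cells share with endothelium, went from 18.1 to 5.82 CPM in GRfl/fl mice. Of 4 endothelial markers, *Pecam1* and *Cdh5* fell and *Stab2* rose from a listed 0 to 0.952 CPM in GRfl/fl mice, and none passed 2-fold in GR-mKO mice. Their sum was 514, 200, 483 and 272 CPM, and its part in the *Zbtb46* values was not tested. Of 6 monocyte genes 1 rose and 3 fell in GRfl/fl mice, and 2 rose and 2 fell in GR-mKO mice. *Ly6c2*, which marks the inflammatory monocytes that carry Ccr2, went from 4.68 CPM to a listed 0 and from 3.56 to 0.593 CPM, whereas *Chil3*, a chitinase-like protein of myeloid cells, went from 0.351 to 17.8 CPM and from 0.405 to 20 CPM. Markers of T cells (5 genes, 0 rose, 5 and 3 fell), B cells (4 genes, 4 fell in each) and NK cells (3 genes, 3 and 2 fell) were lower as well. The T cell genes summed to 7.92, 0.653, 6.935 and 1.39 CPM and the B cell genes to 10.45, 1.46, 15.9 and 3.81 CPM. Adipocyte markers summed to 9304, 12470, 10840 and 10790 CPM. That sum follows *Lep*, the leptin gene, at 722, 5587, 1290 and 3196 CPM, whereas *Adipoq* was at 3792, 2016, 4341 and 2648 CPM and *Plin1* at 2402, 1559, 2356 and 1626 CPM. Markers of the neighboring epididymis summed to no more than 1.103 CPM. Red blood cell genes summed to 2787, 1369, 2883 and 3573 CPM. The part of any of these cell types in the member values was not tested.

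**Figure D4:**
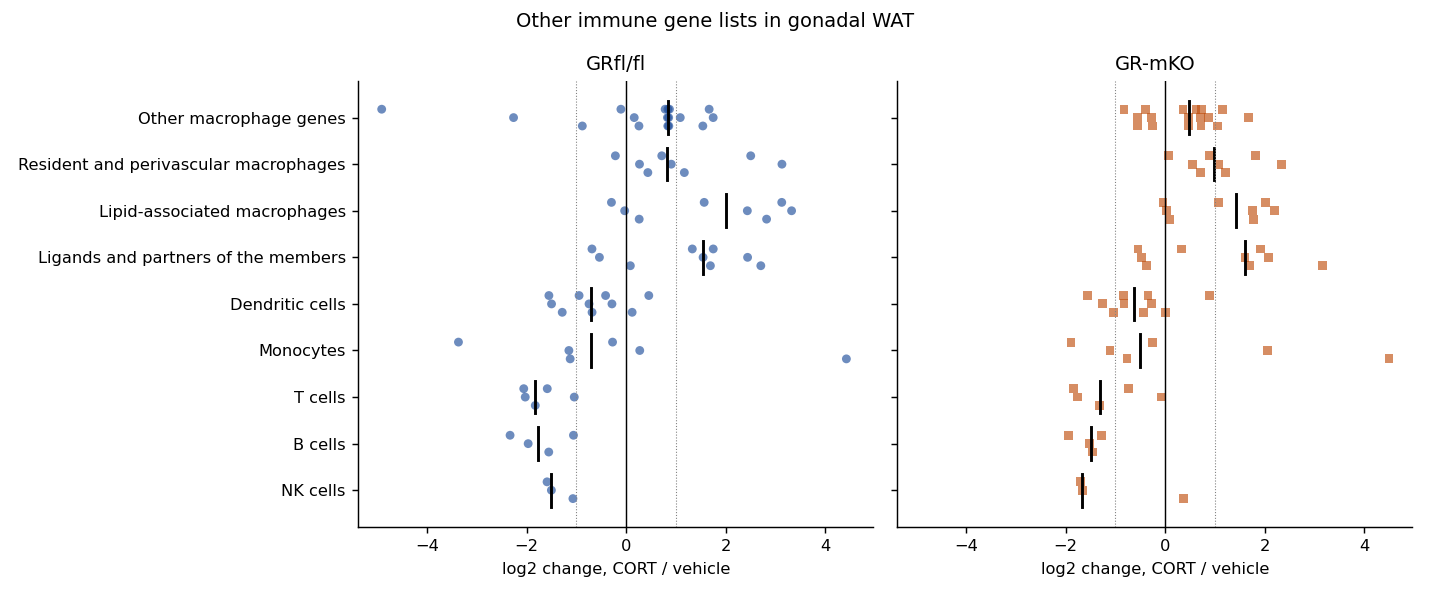
Log2 change with CORT of the single genes of 9 immune lists in gonadal WAT, GRfl/fl on the left and GR-mKO on the right. Each point is a gene, the black bar is the median of the list and dotted lines mark 2-fold; the medians of the macrophage lists lie right of 0 (0.84 and 2.003 for other and lipid-associated macrophage genes in GRfl/fl), and those of dendritic, T, B and NK cells lie left of it.

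In liver of CORT mice the macrophage genes were lower than in vehicle mice in both genotypes, and the 4 general markers were at their lowest in GRfl/fl CORT mice. In GRfl/fl mice 4 of 10 genes fell and none rose, against 6.89% and 6.87% of all genes, with a median log2 change of -0.80 over the 10 and of 0.01 over all genes. In GR-mKO mice 4 fell and none rose, against 3.77% and 3.95%, with a median of -0.83 and of 0.06 over all genes. Of the 10 genes 6 passed the mean of 1 CPM, and over these 6 the median was -1.62 in GRfl/fl mice and 2 fell in GR-mKO mice. With 2 CPM added in place of 0.5 CPM, 1 of the 10 fell in GR-mKO mice (median -0.40). Both CORT libraries lay below both vehicle libraries for 9 of 10 genes (all but *Itgam*), an order held by 21.6% of all genes. That share is taken over genes past the mean of 1 CPM, and the 6 genes that passed it are all among the 9. *Itgax*, *Ccr2* and *Cd209a* did not pass it, and *Cd209a* was at or under the floor in every liver library.

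The 4 that fell in GRfl/fl mice were the general macrophage genes. *Csf1r* was at 29.4, 4.92, 17.1 and 6.80 CPM, a log2 change with CORT of -2.46 (-2.89 to -2.27) in GRfl/fl and of -1.27 (-1.63 to -1.05) in GR-mKO mice. *Adgre1* was at 10.3, 2.12, 7.28 and 3.52 CPM, a change of -2.05 (-2.80 to -1.82) and of -0.95 (-1.48 to -0.64). For both, the GRfl/fl library had the higher level under vehicle and the lower level under CORT. *Cd68* was at 10.9, 3.47, 7.78 and 5.35 CPM, a change of -1.52 (-2.06 to -1.26) and of -0.50 (-0.90 to -0.18). *Lyz2* was at 45.6, 13.45, 38.0 and 23.0 CPM, a change of -1.72 (-1.96 to -1.57) and of -0.71 (-0.89 to -0.56). The same order of the 4 libraries thus held for all 4 genes.

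The response of these 4 genes was smaller in GR-mKO mice by 1.01 to 1.19 on the log2 scale. The difference of the log2 response (GR-mKO minus GRfl/fl) was 1.1 (0.62 to 1.85) for *Adgre1*, 1.02 (0.59 to 1.62) for *Cd68*, 1.19 (0.83 to 1.66) for *Csf1r* and 1.01 (0.78 to 1.29) for *Lyz2*, where the intervals again cover counting error only and the difference has no replicate. Between the genotypes none of the 10 genes passed 2-fold under vehicle, where 2.17% of all genes were higher and 2.04% lower in GR-mKO, or under CORT, where 3.52% were higher and 3.13% lower.

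The scavenger receptors changed less than the general markers in the liver of GRfl/fl mice. *Mrc1*, which in liver is also a gene of sinusoidal endothelium, was at 30.7, 18.0, 30.0 and 24.8 CPM, a log2 change of -0.75 (-0.96 to -0.59) and of -0.27 (-0.45 to -0.11). The 4 endothelial markers summed to 74.7, 45.7, 70.5 and 64.6 CPM in these libraries, with *Kdr* lower and *Pecam1* higher past 2-fold in GRfl/fl mice, and their part in the *Mrc1* values was not tested. *Cd163* was at 4.90, 2.68, 5.61 and 2.33 CPM, a change of -0.77 (-1.37 to -0.39) and of -1.11 (-1.80 to -0.78), and was the one abundant gene with the larger fall in GR-mKO mice. *Mrc1* counts per *Adgre1* count went from 2.97 (2.55 to 3.49) to 8.51 (6.23 to 12) in GRfl/fl and from 4.13 (3.44 to 4.95) to 7.03 (5.50 to 9.13) in GR-mKO mice.

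The remaining 4 genes had too few counts in liver for a level to be set. *Itgam* was at 0.537 to 0.624 CPM in all 4 libraries. *Itgax* was at 0.478, 0.0488, 0.679 and 0.0480 CPM, so that each CORT library held a single count, and its ratio interval on the log2 scale ran from -8.73 to -0.48 in GRfl/fl and from -9.21 to -1.1 in GR-mKO mice. *Ccr2* was at 0.360, 0.244, 0.551 and 0 CPM, which is at least 3.81-fold lower with CORT in GR-mKO mice with the 0 set to the floor (upper limit of the log2 ratio -1.33). *Cd209a* was at 0.0958, 0, 0.0485 and 0 CPM, which gives no fold.

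The lists of other macrophage and Kupffer cell genes of liver went the same way. The background was 6.89% of all genes down and 6.87% up for GRfl/fl, and 3.77% down and 3.95% up for GR-mKO. Of 8 genes of lipid-associated macrophages 1 rose and 1 fell in GRfl/fl mice (median 0.36). In GR-mKO mice 2 of these rose and 2 fell (median 0.21). Of 8 genes of resident and perivascular macrophages 1 fell in GRfl/fl mice, none fell in GR-mKO mice and none rose. Of the 17 other macrophage genes 11 fell and none rose in GRfl/fl mice (median -1.37) and 3 fell and none rose in GR-mKO mice (median -0.61). *Tyrobp*, an adaptor of myeloid receptors, went from 8.73 to 1.31 CPM in GRfl/fl mice, and *Mpeg1*, a pore-forming protein of macrophages, from 37.4 to 14.6 CPM in GR-mKO mice. Of 7 Kupffer cell genes 5 fell and none rose in GRfl/fl mice and none passed 2-fold in GR-mKO mice, with medians of -1.21 and -0.75. *Clec4f*, the lectin that defines Kupffer cells in mice, was at 49.5, 17.1, 41.2 and 25.9 CPM and *Cd5l*, a protein secreted by macrophages, at 55.3, 13.7, 39.96 and 23.6 CPM. *Marco*, a scavenger receptor, moved against the rest, at 3.26, 6.88, 2.32 and 5.14 CPM. Of 10 transcription factors that govern these cells, 3 fell and 1 rose in GRfl/fl mice, and 1 fell and none rose in GR-mKO mice. Among them *Irf8* fell from 5.495 to 1.46 CPM in GRfl/fl mice and *Cebpb*, which hepatocytes also express, from 167 to 42.5 CPM.

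The markers of other liver cells moved beside these values. The 5 hepatocyte markers summed to 79340, 116800, 103100 and 151000 CPM. Most of that sum was *Alb*, at 49850, 83250, 71270 and 111500 CPM, whereas *Apoa1* was at 6186, 2555, 6750 and 4147 CPM and *Ttr* at 3963, 3828, 4541 and 5283 CPM. With the 10 most abundant transcripts of the tissue left out of the totals, all 10 genes kept their side of the 2-fold line in every comparison of the 3 tissues. Red blood cell genes summed to 681, 308.5, 452 and 732 CPM and B cell genes to 2.72, 0.0977, 2.275 and 0.144 CPM, and their part in the result was not tested.

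In gastrocnemius, the levels turned on the GR-mKO vehicle library, which held the highest value of 9 of 10 genes, a place it held for 36.6% of all genes. Under vehicle, 8 of 10 genes were higher in the GR-mKO library and none lower, against 5.73% and 3.98% of all genes, with a median log2 change of 1.29 over the 10 and of 0.08 over all genes. With CORT, 9 of 10 genes fell and none rose in GR-mKO mice, against 5.97% and 2.25% of all genes, with a median of -1.68 and of -0.09 over all genes. TMM factors split all genes of that comparison into 4.52% lower and 2.72% higher. In GRfl/fl mice 3 fell and 1 rose with CORT, against 5.91% and 4.15%, with a median of -0.30 and of -0.09 over all genes. Under CORT, 1 of 10 was lower in GR-mKO mice and none higher, against 6.0% and 5.51%. Adding 2 CPM instead of 0.5 CPM left 5 of the 8 genes past 2-fold under vehicle.

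The general macrophage genes were raised together in that library. *Lyz2* was at 66.15, 67.85, 264 and 109 CPM, so that the GR-mKO to GRfl/fl log2 change was 1.99 (1.91 to 2.09) under vehicle and 0.68 (0.59 to 0.78) under CORT. *Csf1r* was at 13.2, 19.1, 49.7 and 11.35 CPM, a genotype change of 1.88 (1.71 to 2.11) and of -0.72 (-0.99 to -0.51). With CORT, *Csf1r* changed by 0.52 (0.30 to 0.76) in GRfl/fl and by -2.08 (-2.34 to -1.92) in GR-mKO mice, a difference of -2.60 (-2.97 to -2.35). *Cd68* was at 6.21, 4.21, 22.8 and 7.12 CPM and *Adgre1* at 3.52, 4.58, 10.6 and 2.80 CPM, with falls in GR-mKO mice of -1.61 (-1.96 to -1.41) and -1.75 (-2.37 to -1.49). For *Cd68* and *Lyz2* both GR-mKO libraries lay above both GRfl/fl libraries, an order held by 27.1% of all genes.

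The scavenger receptors parted in this tissue. *Mrc1* was at 17.1, 15.2, 33.3 and 12.9 CPM, a log2 change between genotypes under vehicle of 0.94 (0.77 to 1.16) and a fall with CORT in GR-mKO mice of -1.34 (-1.58 to -1.16). *Cd163* was at 8.78, 6.40, 8.53 and 8.71 CPM, a range of less than 1.5-fold, and was the gene of the 10 that was not highest in the GR-mKO vehicle library. *Cd163* counts per *Adgre1* count were 2.50 (1.87 to 3.33), 1.40 (1.05 to 1.85), 0.804 (0.653 to 0.986) and 3.10 (2.29 to 4.26) in the 4 libraries.

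The dendritic cell and monocyte genes of muscle fell with CORT in both genotypes. The *Ccr2* entry was at 3.805, 0, 8.86 and 0 CPM. With the 0 set to the floor, this entry was at least 24.6-fold lower with CORT in GRfl/fl mice. For GR-mKO mice the bound was 60.1-fold (upper limits of the log2 ratio -4.28 and -5.6). Both bounds are for the entry, and whether the gene as a whole fell was not tested. *Cd209a* was at 1.915, 0.103, 4.59 and 0.442 CPM, a ratio interval on the log2 scale of -7.31 to -2.26 in GRfl/fl, where the CORT library held 2 counts, and in GR-mKO mice it fell with a log2 change of -2.43 (-4.55 to -2.39). *Itgax* was at 1.31, 0.206, 3.15 and 0.8375 CPM, a log2 change of -1.36 (-4.65 to -1.14) and of -1.45 (-2.78 to -1.12). With *Mrc1*, these 3 were the genes for which both CORT libraries lay below both vehicle libraries, an order held by 23.5% of all genes. *Itgam* was listed at 0, 2.76, 9.36 and 0 CPM, so the single rise with CORT in GRfl/fl mice and the single fall between genotypes under CORT both rest on an entry at 0. Without *Itgam*, none of the other 9 genes passed 2-fold between genotypes under CORT.

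**Figure D5:**
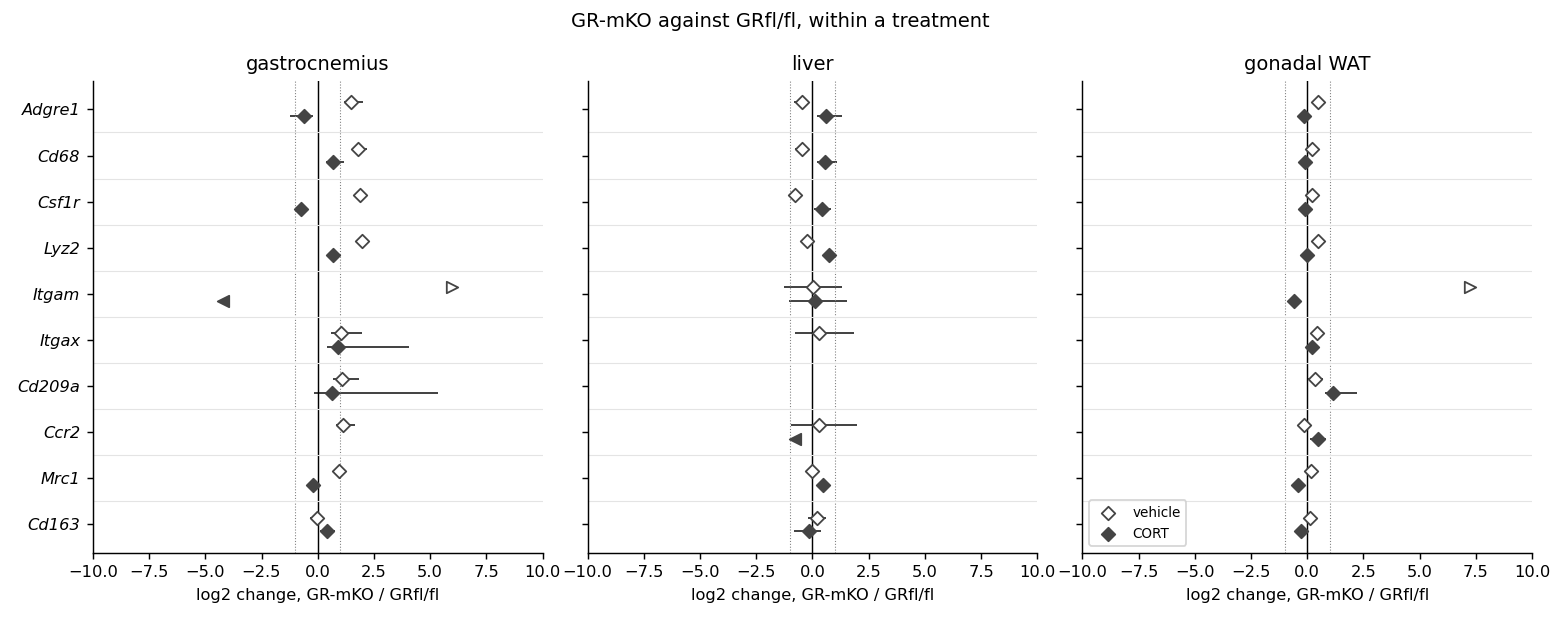
Log2 change of each gene between GR-mKO and GRfl/fl mice, in 1 panel per tissue, with vehicle as open and CORT as filled diamonds. Bars are 95% intervals of the ratio for counting error only, dotted lines mark 2-fold and triangles mark bounds for genes at 0 on one side; in gastrocnemius 9 of 10 open diamonds or triangles lie right of 0, and in liver and gonadal WAT nearly all symbols lie within 2-fold.

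In gastrocnemius the lists of other and of lipid-associated macrophage genes had the same shape. Between genotypes under vehicle 5.73% of all genes were higher and 3.98% lower, and with CORT 5.97% were lower in GR-mKO mice. Other lists differed in the GR-mKO vehicle library. Of 8 resident and perivascular genes 2 were higher and none lower, and of 10 myeloid transcription factors none was higher and 1 lower. Of 6 monocyte genes 1 was higher and 1 lower, and the 6 summed to 499, 320, 266 and 454.5 CPM. Of the 17 other macrophage genes 14 were higher and none lower in the GR-mKO vehicle library (median 1.53), and 15 fell and none rose with CORT in GR-mKO mice (median -1.38). In GRfl/fl mice 1 rose and 1 fell with CORT (median -0.07), against 4.15% and 5.91% of all genes. *Ctss*, a protease of the lysosome, was at 5.29, 7.445, 42.0 and 13.3 CPM, and *Mpeg1* at 5.63, 3.035, 38.35 and 6.89 CPM. Of the 8 genes of lipid-associated macrophages 5 were higher and none lower in that library (median 1.65), and 5 fell and none rose with CORT in GR-mKO mice (median -1.15). Of the 9 ligands and partners, 4 were higher and none lower in GR-mKO under vehicle, among them *Ccl2*, at 0.608, 0.259, 4.16 and 3.48 CPM, and *Itgb2*, at 1.51, 1.47, 8.09 and 5.17 CPM. For these 2 genes the GR-mKO level was past 2-fold above the GRfl/fl level under CORT as well, by 2.39 (2.47 to 5.42) and 1.53 (1.22 to 2.49) on the log2 scale.

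Cell types other than muscle also moved in these 4 libraries. The 5 hepatocyte markers were higher in GR-mKO libraries in both treatments and highest under CORT, where 9 of the 10 genes were lower than under vehicle, while *Clec4f*, the Kupffer cell gene, was at no more than 0.1003 CPM in all 4. Fibroblast markers summed to 1034, 411, 1571 and 598 CPM, the same order of libraries as for *Cd209a* and *Itgax*. Adipocyte markers summed to 42.7, 272, 34.7 and 159 CPM, red blood cell genes to 494, 486, 865 and 1588 CPM, and myofiber genes to 94490, 78210, 59690 and 77160 CPM. Markers of neutrophils, which also express *Itgam*, summed to 0.345 to 3.845 CPM. The part of these cells in the values of the 10 genes was not tested.

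In gonadal WAT the genotypes differed little for these genes. Under vehicle only *Itgam*, from its entry at 0, was past 2-fold higher in GR-mKO mice and none was lower, against 1.69% and 1.81% of all genes. Under CORT only *Cd209a* was higher, by 1.16 on the log2 scale (0.77 to 2.23), and none was lower, against 2.13% and 1.99%. With CORT the response in GR-mKO minus that in GRfl/fl was -0.62 (-0.83 to -0.42) for *Adgre1*, -0.45 (-0.50 to -0.40) for *Lyz2*, -0.58 (-0.71 to -0.46) for *Mrc1*, 0.83 (0.34 to 1.84) for *Cd209a* and 0.60 (0.25 to 1.02) for *Ccr2*. The responses of the genes that went up and of those that went down were thus both nearer to 0 in GR-mKO mice.

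Within each tissue, most of the genes followed a common profile over the libraries. Over the 12 libraries, with log2(CPM + 0.5) centered in each tissue, *Mrc1* had a Pearson correlation of 0.908 with the mean of the other 9 genes, *Adgre1*, *Cd68*, *Lyz2*, *Itgax* and *Csf1r* of 0.833 to 0.865, *Cd163* of 0.542, *Itgam* of 0.437, *Ccr2* of 0.326 and *Cd209a* of 0.278. Of 6726 other genes with a mean of at least 5 CPM in every tissue, the 5 most like the mean of the 10 were *Laptm5*, a lysosomal protein of blood cells (0.955), *Cybb*, the catalytic subunit of the phagocyte oxidase (0.949), *Fcgr2b*, the inhibitory receptor for antibody (0.945), *Arl8a* (0.941) and *Tpm4* (0.939). These values describe 12 libraries whose genes share depth and tissue, and carry no test.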

How the data were processed

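RNA-seq libraries were made by the authors from pools of RNA from 3 mice. Paired reads were quantified by the authors with Salmon 1.2.1 (submitters' processing notes) against protein-coding transcripts from GENCODE M20 and imported with tximport on the length-scaled scale in R 3.5.0. The deposited values are expected counts (estimated counts), 1 transcript entry per gene symbol, the one with the largest total. The paper names a step that sums over genes, so whether values were summed beforehand was not settled.

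Here, counts were divided by library totals (19394572 to 20940660), without rounding, giving CPM. Genes with a mean of at least 1 CPM over the 4 libraries of a tissue formed the background, 12190 for gastrocnemius, 10943 for liver and 12817 for gonadal WAT. Log2 changes used a pseudocount of 0.5 CPM. Counts were rounded for 95% Wilson (CPM) and exact Clopper-Pearson (ratio) intervals, which, like the floor of 3 counts, cover counting error only. Differences of responses have a normal 95% interval from the counting errors of the 4 libraries, with 0.5 added to each count. Scripts were tested on simulated data. Gene positions, transcripts and shared 31-base words came from GENCODE release M21, not the release used for quantification, and promoters from RefSeq.

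With 1 library per group no test was run, an additive fit over the 4 libraries of a tissue was not made, and the authors' NOISeq calls on simulated samples were not repeated. The 10 genes and all lists were chosen with earlier results of these data known. All 10 genes are reported, of each other list the text may name the 3 with the largest change in a comparison, the 5 genes most like the 10 and the near relatives were set by rule, and Gm49368 and a few list genes outside that rule were named after their values were seen. The lists of resident macrophages and Kupffer cells share *Folr2* and *Timd4*. *Mrc1* and *Cd163* also stand in the alternative activation list, and *Cd163* in that of glucocorticoid-induced genes. *Mertk*, *Chil3* and *Clec10a* each stand in more than 1 list. Alternatives were other scalings (TMM factors of edgeR 4.0.16 in R 4.3.3, median-of-ratios factors, totals without the 10 most abundant transcripts), pseudocounts of 0.1 and 2 CPM, a 1.5-fold line and no filter. Leaving out *Itgam* and counting only genes past the filter were added after the data were seen. Python 3.11.15, numpy 2.4.6, pandas 2.3.3, scipy 1.17.1 and matplotlib 3.10.9 were used. A few genes are not reported here.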

Additional observations from a re-analysis of the deposited data

Results flagged for a closer look

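The responses below went opposite ways in the 2 groups set side by side, with counting intervals of both ratios away from 0, and the differences were not tested.

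Between genotypes in gastrocnemius, the log2 response of *Csf1r* to CORT in GR-mKO minus that in GRfl/fl mice was -2.60. For *Itgam* it was -7.01, a fitted value that rests on entries at 0 in the GRfl/fl vehicle and the GR-mKO CORT library and is no bound.

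Between tissues, 6 of the 10 genes went up with CORT in gonadal WAT and down in liver in both genotypes. The gonadal WAT minus liver difference of the log2 response for *Adgre1* was 3.51 between the GRfl/fl tissues and 1.795 between the GR-mKO tissues. It was 3.255 and 1.955 for *Cd68*, 3.42 and 1.89 for *Csf1r*, and 3.11 and 1.65 for *Lyz2*. For *Mrc1* it was 1.84 and 0.78, and for *Cd163*, whose retained transcript is the same in both tissues, 1.89 and 1.82.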

How the results depend on the processing

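No paired analysis was possible because the groups, with 1 library each, share fewer than 2 replicate numbers. Counts of genes past the fold and medians kept within 1.5 times, or within the counting error, in 208 of 228 recomputations. Single genes kept their side of the 2-fold line in 793 of 840, with no called change reversed. Part of this was fixed by construction. Dropping the filter changes only the background, so its 120 single-gene values could not move. A 1.5-fold line cannot move a median. Counting only genes past the filter changes nothing in gastrocnemius and gonadal WAT, where all 10 pass. The cause of the moves that did occur was not tested beyond the construction of each alternative.

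With TMM or median-of-ratios factors, 5 genes (3 up, 2 down) passed 2-fold with CORT in gonadal WAT of GR-mKO mice. These factors shift the median of all genes with CORT in GR-mKO mice by 0.145 and 0.133 in gastrocnemius and by 0.121 and 0.125 in gonadal WAT, and the share of calls that were higher from 27.3% to 37.5% in the first and from 39.0% to 50.2% in the second (TMM). No gene of the 10 changed direction with scaling but *Itgam* between genotypes in liver under vehicle (0.01 to -0.003).

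With a pseudocount of 0.1 CPM, 3 genes passed 2-fold between genotypes under CORT in gastrocnemius and 1 in liver, and the median with CORT in liver of GRfl/fl mice was -1.30. With 2 CPM, 2 passed with CORT in gastrocnemius of GRfl/fl mice, 5 between genotypes under vehicle there, 1 with CORT in liver of GR-mKO mice (median -0.40) and 0 between genotypes under CORT in gonadal WAT. At 1.5-fold, 7 passed between genotypes under CORT in gastrocnemius, 7 with CORT in liver of GRfl/fl mice, 1 and 2 between genotypes in liver under vehicle and CORT, 8 with CORT in gonadal WAT of GR-mKO mice and 2 between genotypes under CORT there.

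Without *Itgam*, 0 passed between genotypes under CORT in gastrocnemius and under vehicle in gonadal WAT. With only the 6 genes past the filter, the median with CORT in liver of GRfl/fl mice was -1.62 and 2 passed in GR-mKO mice. Depth limits the 4 rare genes of liver, and pools without replicates limit every comparison.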

Other observations

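The inflammatory and alternative activation genes, 2 lists with few abundant members, are given as values. In gonadal WAT, *Retnla*, a secreted protein of alternatively activated macrophages, was at 337 and 95.4 CPM in GRfl/fl vehicle and CORT and at 397 and 157 CPM in GR-mKO mice, whereas *Arg1*, the arginase, was at 0.601, 5.52, 0.861 and 3.37 CPM. *Nos2*, the inducible nitric oxide synthase, fell from 9.43 to 1.165 CPM in GRfl/fl mice, and *Ccl3*, a chemokine, rose from 0.301 to 4.915 CPM and in GR-mKO mice from 0.607 to 2.83 CPM. *Fkbp5*, a gene induced by glucocorticoids in most cells, rose with CORT in gastrocnemius from 61.85 to 355 CPM in GRfl/fl mice and was at 30.0 and 20.8 CPM in GR-mKO mice. In gonadal WAT *Fkbp5* was at 141 and 427 CPM in vehicle and CORT libraries of GRfl/fl mice and at 206 and 264 CPM in those of GR-mKO mice. Of the 8 glucocorticoid-induced genes there, 3 rose and 1 fell in GRfl/fl mice and 1 rose and 2 fell in GR-mKO mice (medians 0.66 and -0.32). Of all genes 6.4% rose and 8.96% fell in GRfl/fl mice, and 4.17% and 6.52% in GR-mKO mice. The list includes *Cd163*, itself a gene of the marker set, among those that rose in GRfl/fl mice.

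The entry of Gm49368, which shares 73.9% to 75.1% of the 31-base words of the *Itgam* transcripts, was at no more than 0.348 CPM in any library.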
